A study of Caenorhabditis elegans with 2 samples.

Results

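GRH-1 peaks on the X chromosome were the peaks of the pooled list past the authors' reproducibility threshold that lay on X, and they numbered 489 of 2470 peaks in the genome; the other 1981 lay on the 5 autosomes. The data came from ChIP-seq, in which DNA bound by a protein is precipitated with it and sequenced, in entire Caenorhabditis elegans L1 larvae of strain RW12208, in which CRISPR had added the tags TY1, EGFP and 3xFLAG to grh-1 at its own locus. All larvae were starved after bleaching and were 6 h old, The description in the labels gives a GFP antibody for the precipitation, while their antibody field reads grh-1. There was 1 group with 2 biological replicates. A comparison of the chromosomes was therefore made within 1 condition, and none could be made between treatments or genotypes. Replicate 1 alone gave 337 X peaks of 1787 and replicate 2 alone gave 288 of 1487. The number of reads behind the lists is unknown, and intervals given here are 95% intervals for counting error over peaks, sites or genes.

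Grainyhead proteins are transcription factors of the epidermis and other epithelia, where they bind sites built around the palindrome AACCGGTT and act on genes for barrier, junction and cuticle formation. The X chromosome of C. elegans has a regulation of its own: hermaphrodites carry a pair of X chromosomes and males a single one, and in hermaphrodites the dosage compensation complex binds X and lowers its transcription. That complex is loaded at recruitment elements on X, called rex sites, and a motif known from these elements holds the letters GCGCAGGG. In whole larvae, more cells bound at a site and more binding per cell give the same signal and cannot be told apart.

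The sequences that mark the X summits most clearly are shown first, on build ce11, with the searched letters in capitals. A summit is the position of highest signal that the authors' list gives for a peak. The rex motif core GCGCAGGG was found within 100 bp of 17 X summits, in 21 sites, and 8 of these sites are shown, 7 at summits with high signal and the last at one with a low value of 99.9, so that their flanks can be compared.
mom-1, chrX:6296568-6296591, plus strand: taggtatcGCGCAGGGaagattta
W02H3.3, chrX:11094117-11094140, minus strand: tttatatcGCGCAGGGagcttatg
nspc-17, chrX:14525892-14525915, minus strand: tgcctatcGCGCAGGGacagatgt
F20B6.9, chrX:4209258-4209281, minus strand: ccgctatcGCGCAGGGacacctct
xol-1, chrX:8036427-8036450, plus strand: tttccatcGCGCAGGGaacccttc
xol-1, chrX:8036393-8036416, minus strand: tttttatcGCGCAGGGacgtatgt
gtr-1, chrX:806666-806689, plus strand: cgattatcGCGCAGGGgtgtttgt
R04E5.9 and cnnm-2, chrX:8811097-8811120, minus strand: cacgcgacGCGCAGGGagagggac
The 7 sites shown at high summits all have ATC directly before the core, but they are a selection. Other sites at high summits lack ATC there, such as that of pks-1 (signal value 641) and the second ones of mom-1 (824) and W02H3.3 (800.2). Over all 21 sites, A, T and C stood at these positions in 13, 16 and 16 sites. Of the 21 sites at X summits, 16 also matched CGCGCAGGG and 17 matched GCGCAGGGA.

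The Grainyhead palindrome AACCGGTT was found within 100 bp of 21 X summits, 1 of them shared with the core above, in 21 sites, and 5 sites with high signal are shown.
ekl-5, chrX:13920565-13920592, plus strand: tcaattgtcaAACCGGTTtttgcgttct
M163.1, chrX:14508262-14508289, plus strand: tatgatgtggAACCGGTTattcgttatt
apl-1, chrX:5119545-5119572, plus strand: caagggtcctAACCGGTTctgcggttgg
myrf-2, chrX:10194720-10194747, plus strand: tcccagaaaaAACCGGTTattttttgag
tps-1, chrX:17475021-17475048, plus strand: aagacgatgaAACCGGTTtaaaaccaag
The highest X summit of all is the one nearest to ekl-5, and the sequence from 100 bp before it to 100 bp after it, chrX:13920476-13920676, plus strand, with the palindrome in capitals, is shown to place the site within the peak.
ekl-5 summit: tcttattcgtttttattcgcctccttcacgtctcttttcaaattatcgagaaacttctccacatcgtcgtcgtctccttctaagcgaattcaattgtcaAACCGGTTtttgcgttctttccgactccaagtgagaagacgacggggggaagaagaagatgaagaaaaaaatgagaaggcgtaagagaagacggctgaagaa
Another sequence, AGACGCAG, is one that earlier work on these same data had ranked at the head of all words of its length at summits, so its presence at summits is not independent of them. It was found at 39 X summits, and the sites nearest to hsp-3 and hst-2 are shown.
hsp-3, chrX:6092146-6092169, plus strand: gcgcgcagAGACGCAGagtcattc
hst-2, chrX:11207160-11207183, minus strand: atcattagAGACGCAGacatcggt

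The core GCGCAGGG set the X summits apart most clearly among the sequences searched. It lay at 17 of 489 X summits (3.48%, 2.18 to 5.50), against 5 of 1981 autosomal summits (0.252%, 0.108 to 0.590), which is 14.2 as an odds ratio (adjusted p = 5.95e-08 over 7 motifs by the Benjamini-Hochberg procedure, Fisher's exact test, two-sided). All 5 autosomal summits with the core lay on III, where they made up 1.27% of summits (0.545 to 2.94). In equally wide windows centred 500 bp away from each summit on both sides, the core was present in 0.102% on X and in 0.0505% on the autosomes. Motifs were searched on both strands, within 100 bp of the summit, and a match is a description of the letters in that window. The 7 motifs were chosen with earlier results of these data known, and the adjustment over 7 does not cover that choice.

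The core is scarce in the genome, and a larger share of its X copies than of its autosomal copies as a group lay at summits. X held 81 copies (4.57 per Mb), of which 21 (25.9%, 17.6 to 36.4) were within 100 bp of a summit, against 233 autosomal copies (2.82 per Mb), of which 5 (2.15%, 0.920 to 4.92) were. All 5 were on III, where they made up 10.9% of 46 copies (4.73 to 23.0), and this interval overlaps that of X. Among copies that match the longer CGCGCAGGG, 16 of 33 on X (48.5%, 32.5 to 64.8) lay at summits, against 0 of 44 on the autosomes, where a count of 0 allows a share of up to 6.82%, taken as 3 counts of the total (the Wilson upper limit is 8.03%). Copies that match GCGCAGGGA lay at summits in 17 of 34 cases on X (interval 34.1% to 65.9%), against 1 of 79 on the autosomes (1.27%, 0.224 to 6.83). A further 20 of the 81 X copies of GCGCAGGG lay only at peaks of the ranked list that missed the threshold, against 84 of the 233 autosomal copies. That list is dense, with 1105 peaks per Mb on X and 1189 on the autosomes. No background share was computed for these counts, so they say nothing about binding. Of the 17 X summits with the core, 4 had 2 copies. Copies at the same summit are not independent, so the intervals over copies are too narrow. The longer forms were counted after the sites had been seen and were not tested.

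The 17 X summits with the core were among the highest on the chromosome, although with a wide range. The median signal value was 503 in the pooled list (lowest 6.99, highest 824), against 121 at the 472 X summits without the core, 120.2 at the 5 autosomal summits with it and 128 at the 1976 autosomal summits without it. In the replicates' ranked lists the medians at X summits with the core were 295 in replicate 1 and 231 in replicate 2, against 70.0 and 59.0 at X summits without it. Of the 17 summits, 13 were among the top 100 X summits by signal, 10 were among the top 50, and 4 ranked below 200. Peaks of both replicates' own thresholded lists overlapped 13 of the 17. The lowest value, 6.99, belonged to a summit in Y41G9A.17 that lay 199 bp from another summit with a signal value of 633, and both overlapped a single peak of replicate 1.

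**Figure D1:**
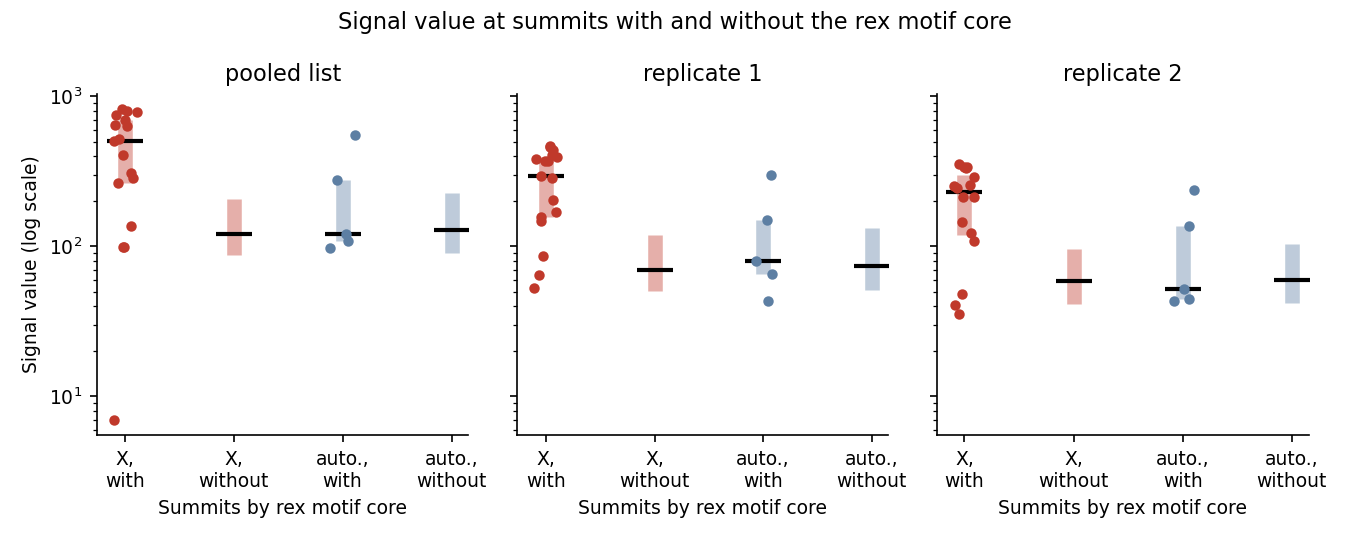
Signal value (log scale) in the pooled list and in each replicate's ranked list, at summits with and without the rex motif core on X and on the autosomes. Thick bars span the quartiles, black lines are medians and points are single summits with the core; on X most points with the core lie above the upper quartile of summits without it, and the autosomal medians with and without it are close to each other.

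A promoter window starts 1000 bp before the 5′ end of an annotated protein-coding transcript and stops 200 bp after it. A gene can have several such 5′ ends, so some promoter windows lie inside genes, as at the summits of peb-1. Only 4 of these 17 summits were in a promoter window. Of the rest, 9 were intergenic, 3 were in introns and 1 was in a coding exon. The intron of mom-1, which encodes a Porcupine-type acyltransferase needed for Wnt secretion, held the highest of them, with signal values of 824 in the pool, 462 in replicate 1 and 356 in replicate 2 and with 2 copies of the core. A summit at 693 in the pool, 394 in replicate 1 and 289 in replicate 2, also with 2 copies, was 4873 bp upstream of xol-1, the switch gene that sets male fate and keeps dosage compensation off. The coding exon was one of pks-1, a polyketide synthase gene, with values of 641 in the pool, 382 in replicate 1 and 256 in replicate 2. In the promoter window of ins-39, which encodes an insulin-like peptide, the values were 265, 147 and 122 in the same order. Only the summit of gcc-1, at 410.0 in the pool, had the core together with a Grainyhead palindrome.

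A list on dosage and sex, with genes that read the number of X chromosomes or start dosage compensation, has 23 members, of which 6 are on X. A summit in the promoter window was found for 0 of the 6 and for 0 of the 17 on the autosomes; over all X genes the share was 8.06%, so a count of 0 among so few is near the background. The nearest summit was 4671 bp from the 5′ end of xol-1 and 2361 bp from that of ceh-39, a homeobox gene that acts as an X signal. It was 7996 bp away for sex-1, a nuclear receptor gene of the same kind, and 13258 bp for fox-1, an RNA-binding X signal. Distances in this paragraph are from each gene's outermost 5′ end. The fox-1 summit lay in an intron of the gene, with a signal value of 79.1 in the pool. It was 2192 bp downstream of another, nearer 5′ end of fox-1. For sdc-1 and sdc-2, which take part in loading the dosage compensation complex, the distances were 9600 and 44639 bp.

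Grainyhead sites were found at X summits more than at their flanks, and their shares on X and on the autosomes did not differ past the test. The palindrome AACCGGTT lay at 21 X summits (4.29%, 2.83 to 6.48), against 73 autosomal summits (3.69%, 2.94 to 4.61), with odds in the ratio 1.17 (adjusted p = 0.715, two-sided Fisher's exact test). Flanking windows held it in 0.102% of cases on X and in 0.429% on the autosomes. The wider form AACYGGTT, with Y for either pyrimidine, was present at 44 X summits (6.77% to 11.9%) and 167 autosomal summits (7.29% to 9.74%) (adjusted p = 0.718, Fisher's exact test). The shorter ACCGGT, which is part of the palindrome, was present at 8.59% and at 6.71% (adjusted p = 0.293, Fisher's exact test). At least 1 of these Grainyhead forms was found at 65 X summits (13.3%), against 224 autosomal summits (11.3%).

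X summits with the palindrome had a median signal value of 301, against 121 for X summits without it. When the autosomal summits were split by signal into 4 parts from high to low, 34 of 496, 27 of 495, 7 of 495 and 5 of 495 had the palindrome. With the X summits split in the same way, 13 of 123, 4 of 122, 3 of 122 and 1 of 122 had it, so most were in the uppermost part. The highest X summit with the palindrome was the one nearest to ekl-5, 3405 bp upstream of its 5′ end, at 1174 in the pool, 628 in replicate 1 and 532 in replicate 2. Others lay near M163.1 (573 in the pool), near gnrr-3 (459), whose product resembles receptors for gonadotropin-releasing hormone, and near apl-1 (426), the gene for the worm's amyloid precursor-like protein, which is needed for molting. The summit of myrf-2 (423), one of the myelin regulatory factor genes, was in its promoter window, and further summits were assigned to F46H5.7 (372), tps-1 (347, trehalose phosphate synthase), F57G12.2 (337) and atg-2 (302, autophagy). Replicate agreement was high in this set, with 18 of 21 summits in both replicates' lists and 2 in neither.

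AGACGCAG was less frequent at X summits than at autosomal ones. The word had been picked by its rank at summits of these same data, most of which are autosomal. The comparison and its p-values are therefore not independent of that choice, which favours a word frequent at autosomal summits. It lay at 39 X summits (7.98%, 5.89 to 10.7), against 260 autosomal summits (13.1%, 11.7 to 14.7), with odds in the ratio 0.574 (adjusted p = 0.00510, two-sided Fisher's exact test). The word itself is also scarcer on X, with 29.4 copies per Mb against 64.1 per Mb on the autosomes, and 8.45% of the X copies lay at summits, against 5.54% of the autosomal copies. In promoter windows its share was 11.0% of X summits (7.48 to 15.8) and 12.8% of autosomal summits (11.0 to 14.9). Outside them it was 5.56% on X (3.40 to 8.96) and 13.6% on the autosomes (11.4 to 16.0). The difference between the chromosomes did not pass the test in replicate 2's own list, at 10.4% against 15.1% (adjusted p = 0.167, Fisher's exact test), or among pooled peaks above the median signal value, at 10.4% against 15.6% (adjusted p = 0.125, Fisher's exact test).

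The remaining words did not pass the test between X and autosomes. GAGAGA, a repeat known from the GAGA factor of flies, lay at 36.0% of X summits and 35.0% of autosomal summits, against 11.0% and 11.5% of flanks. CACGTG, the E-box bound by basic helix-loop-helix proteins, lay at 13.9% of X summits (11.1 to 17.3) and 10.4% of autosomal summits (9.13 to 11.8), with an adjusted p of 0.0698 by Fisher's exact test. None of the 7 words was found at 40.1% of X summits and 48.3% of autosomal summits. G and C made up a median of 44.8% of the window at X summits and 42.3% at autosomal summits, while the chromosomes as a whole had 35.2% and 35.5%.

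**Figure D2:**
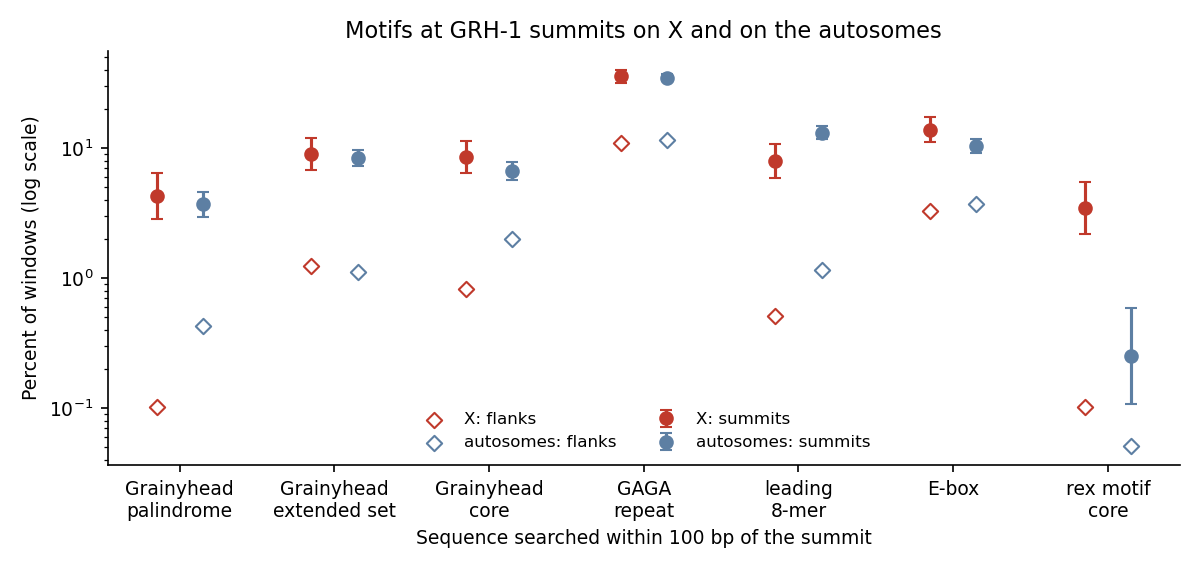
Percent of windows, each reaching 100 bp to both sides of its centre, that hold each searched sequence (log scale), at summits (filled circles with 95% Wilson intervals) and at flanks 500 bp away (open diamonds), for X and for the autosomes. The leading 8-mer is AGACGCAG and the rex motif core is GCGCAGGG; the intervals of X and of the autosomes are apart for these 2 and overlap for the other 5.

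By length, X had 27.6 peaks per Mb (25.2 to 30.2, exact Poisson interval), against 24.0 per Mb (23.0 to 25.1) on the 5 autosomes as a group. Autosome III was higher than X at 28.5, and II, I, IV and V were lower at 26.2, 25.4, 22.0 and 20.1. The ratio of X to autosomes was 1.15 (1.04 to 1.27). It was 1.08 (0.959 to 1.22) in replicate 1's own list and 1.12 (0.981 to 1.27) in that of replicate 2, and 1.09 (0.983 to 1.21) without V, so these intervals include a ratio of 1. One chromosome against 5 cannot give an exact permutation p below 0.167, and no test over chromosomes was made.

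Relative to genes, X stood higher. X had 179 peaks per 1000 protein-coding genes (164 to 196), against 115 (109.9 to 120.1) on the autosomes, where the values were 149 on III, 133 on I, 117 on IV, 116 on II and 84.3 on V. In replicate 1's list there were 123 per 1000 genes on X and 84.1 on the autosomes, and in replicate 2's list 105 and 69.5. X has fewer genes for its length, with 154 per Mb against 209 per Mb on the autosomes. In the ranked lists, before the threshold, X had 1105 peaks per Mb and the autosomes 1189, and 2.50% of the ranked X peaks were in the thresholded list, against 2.02% of the autosomal ones.

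**Figure D3:**
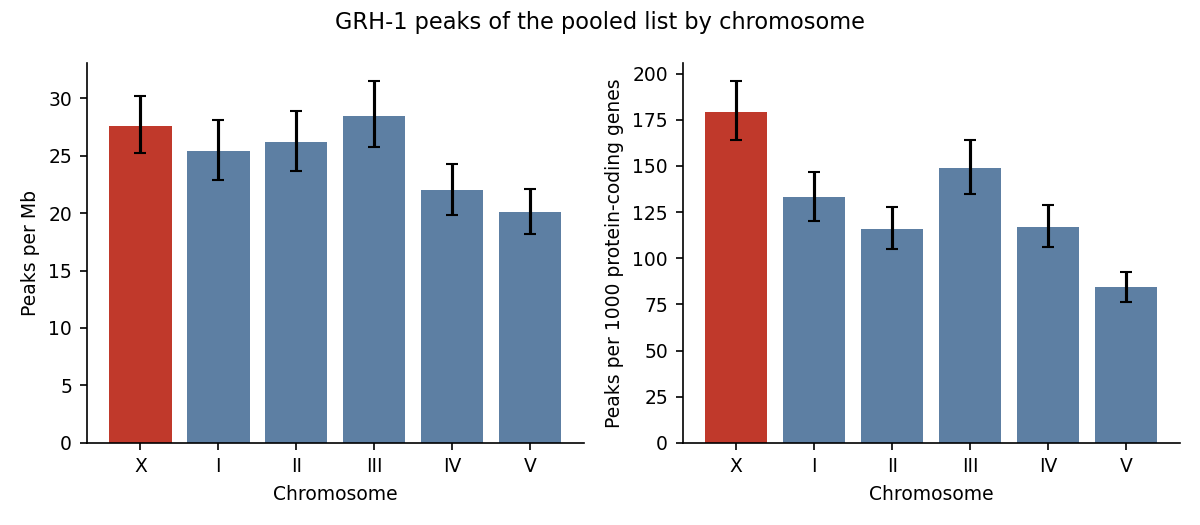
Peaks of the pooled list per Mb (left) and per 1000 protein-coding genes (right) on each chromosome, with exact 95% Poisson intervals. X is second to III by length and first by genes, at 179 per 1000 genes.

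Signal values on X were close to those on the autosomes for most peaks, and the highest values of the list were on autosomes. The median was 123 on X (quartiles 88.6 and 214) and 128 on the autosomes (90.2 and 227) in the pooled list. It was 94.9 on X and 98.0 on the autosomes in replicate 1's own list, and 86.7 and 87.4 in replicate 2's. Of X peaks 47.2% were above the median of the whole pooled list, against 50.7% of autosomal peaks (two-sided Fisher's exact test, adjusted p = 0.287). The highest value was 1174 on X, against 2830.4 on the autosomes, in the pool. In the replicates' own lists it was 628 against 1667 in replicate 1 and 532 against 1189.6 in replicate 2, and in the pool X, with 19.8% of all peaks, held 12 of the 100 highest and 50 of the 300 highest. Autosome V, with 421 of the 2470 peaks, held 11 and 46. A ranked X peak at 1594 that reaches the reproducibility limit is not in the thresholded list and is not counted here.

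The replicates agreed on X to the degree they did elsewhere. Peaks of both replicates' thresholded lists overlapped 245 of the 489 X peaks (50.1%), against 50.2% of autosomal peaks (adjusted p = 1.00, Fisher's exact test). A further 80 X peaks were overlapped in replicate 1 only, 37 in replicate 2 only and 127 (26.0%) in neither, against 23.1% in neither on the autosomes (adjusted p = 0.287, Fisher's exact test). X peaks in both lists had a median signal value of 214, those in replicate 1 only 105, those in replicate 2 only 115 and those in neither 84.0. Across the 478 X peaks that matched a ranked peak in both replicates, Spearman's rho between the replicates' signal values was 0.815, against 0.809 on the autosomes; it describes peaks, which are not replicates, and the pooled list was built from the same reads.

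At the threshold, the X peak with the lowest −log10 of the irreproducible discovery rate (IDR) inside the list had 2.004 and a signal value of 65.0, and the nearest one below the limit of 2 had 1.993 and a signal value of 71.4. The list also holds 14 X peaks with a signal value under 20.

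Summits on X lay in promoter windows less often than autosomal summits. Promoter windows held 219 X summits (44.8%, 40.4 to 49.2), against 1118 autosomal summits (56.4%, 54.2 to 58.6), with odds in the ratio 0.626 (adjusted p = 1.40e-05 over 12 shares, two-sided Fisher's exact test). The sequence closest to genes, at most 300 bp from a 5′ end, held 26.6% of X summits and 39.5% of autosomal summits (odds ratio 0.554, adjusted p = 1.03e-06, Fisher's exact test). The median distance to the nearest 5′ end was 1005 bp on X and 519 bp on the autosomes. Promoter windows also cover less of X, at 21.8% of its bases against 27.1% of autosomal bases, so that the share of summits over the share of bases was 2.05 on X and 2.09 on the autosomes.

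Intergenic sequence held 148 X summits (30.3%, 26.4 to 34.5), against 387 autosomal summits (19.5%, 17.8 to 21.3), with an odds ratio of 1.79 (adjusted p = 3.65e-06, Fisher's exact test). It also covers more of X, and the share of summits over the share of bases was 1.03 on X and 0.979 on the autosomes. Introns held 15.5% of X summits and 16.5% of autosomal summits (adjusted p = 0.818, Fisher's exact test). Coding exons held 12 X summits (2.45%), against 4.54% of autosomal summits (adjusted p = 0.0995, Fisher's exact test). The 3′ UTRs held 2 X summits, the higher of them in K09E9.1 at 128, and the 5′ UTRs held 0 of 489, which allows a share of up to 0.613% by 3 counts of the total (the Wilson upper limit is 0.779%), against 6 autosomal summits.

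Genes that do not code for protein held more of the X summits. Outside promoter windows and coding genes, 32 X summits (6.54%, 4.67 to 9.09) lay in such genes, against 43 autosomal summits (2.17%, 1.62 to 2.91), with odds in the ratio 3.16 (adjusted p = 1.40e-05, two-sided Fisher's exact test). The bases of such genes made up 2.99% of X and 3.55% of the autosomes, so that the summit share over the base share was 2.19 on X and 0.612 on the autosomes. On V, the autosome with the highest share, it was 4.75% of summits. Of the 32, 26 were in genes annotated as ncRNA, 2 in an overlap of ncRNA and tRNA, 2 in tRNA genes, 1 in a lincRNA and 1 in a pseudogene. The highest was in the ncRNA gene F09E10.14, at 681 in the pool, 364 in replicate 1 and 327 in replicate 2.

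**Figure D4:**
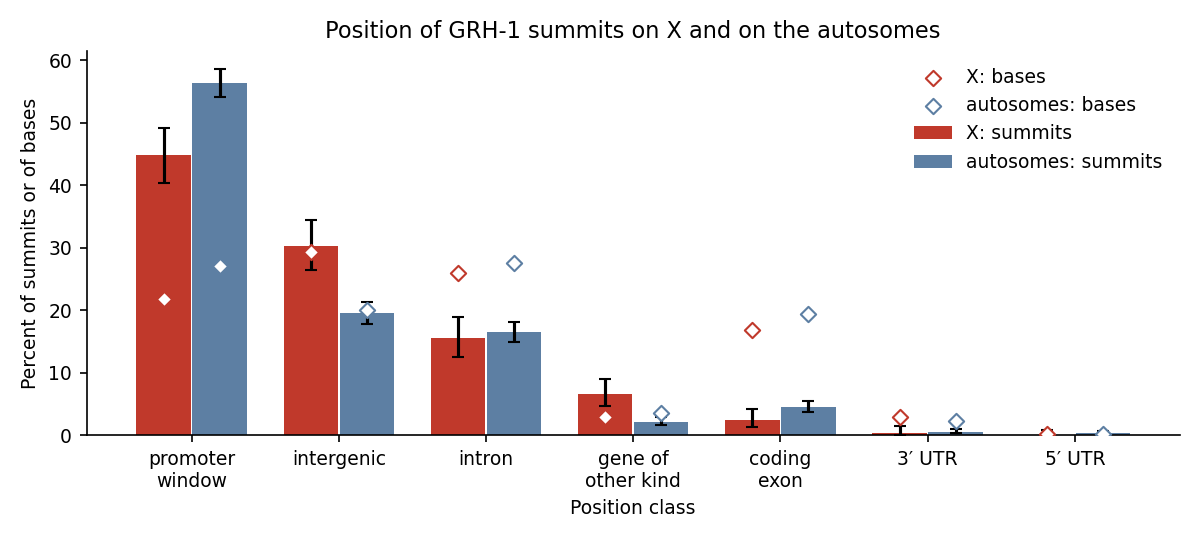
Percent of summits in each position class (bars with 95% Wilson intervals) and percent of bases in that class (open diamonds), for X and for the autosomes. X is lower in promoter windows and higher in intergenic sequence for summits and bases alike, while genes of other kinds hold a larger share of summits than of bases on X only among these 2 groups.

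The highest X summits belonged to genes of varied roles. In the promoter window of puf-9, which encodes an RNA-binding protein of the Pumilio family, the signal value was 1036 in the pool, 584 in replicate 1 and 461 in replicate 2. hsp-3, for a chaperone of the endoplasmic reticulum related to BiP, had 1014, 566 and 450.5 in the same order, at a summit 48 bp upstream of its 5′ end, and serp-1.1 had 1002, 526 and 485. A summit 1437 bp upstream of nhr-14, a nuclear receptor gene, had 879, 477 and 398. These 4 summits and that of ekl-5 held the first 5 places on X in the pool, and in each replicate every one of them was above that replicate's value for any of the next 4 listed here. Those were mom-1 and, in promoter windows or nearest to the summit, F02C12.3 (805 in the pool), W02H3.3 (800.2) and nspc-17 (792). The places that follow to the 15th were held by K02D3.1 (778), F20B6.9 (751), xol-1 (693), F09E10.14 (681), F55G7.5 (673) and M163.1 (667). All 15 were in both replicates' lists, and 8 of them were intergenic, 5 were in promoter windows, 1 was in an intron and 1 was in an ncRNA gene.

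Of the 2731 protein-coding genes on X, 220 had a summit in their promoter window (8.06%, 7.09 to 9.14), against 1409 of 17242 autosomal genes (8.17%, 7.77 to 8.59; adjusted p = 0.960, Fisher's exact test); over all chromosomes the share was 8.16%. When each summit was given only to the gene with the nearest 5′ end, the share was 7.47% on X and 5.94% on the autosomes (odds ratio 1.28, adjusted p = 0.00638, Fisher's exact test), so the direction depends on whether a summit counts for every promoter window that holds it. Of the X genes with a summit, 204 had 1 and 16 had 2. Those with 2 included nhr-25, myrf-2, alg-1, an Argonaute gene of the microRNA pathway, sma-9, a Schnurri-type cofactor of BMP signalling, nipi-3, a Tribbles-type kinase gene, gpd-2, a glyceraldehyde-3-phosphate dehydrogenase gene, and ftt-2, a 14-3-3 gene; they were named after their counts were seen.

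Gene lists were read against the background of 8.06% of X genes and without a test. Among molting and larval timing genes, 4 of 11 on X had a summit (36.4%), against 7 of 24 on the autosomes (29.2%). They were myrf-2 at 423 in the pool, nhr-25 at 186, kin-20 at 167 and hbl-1 at 95.2. nhr-25 is a nuclear receptor of molting and epidermal development, kin-20 a casein kinase related to Doubletime, and hbl-1 a Hunchback-like timing factor. Nuclear receptor genes had summits in 5 of 27 cases on X (18.5%), against 16 of 247 on the autosomes (6.48%), and after nhr-25 the highest were nhr-32 at 150.3 and nhr-1 and nhr-48 at 115 each. The 2 lists of other transcription factors had no X member with a summit. The counts were 0 of 26 homeobox genes (3 of 69 on the autosomes) and 0 of 19 bHLH, forkhead, GATA and T-box genes (4 of 65). Against 8.06% of all X genes, counts of 0 among so few are near the background. The second list is not complete, since mdl-1, a bHLH gene on X with 2 summits in its promoter windows, is not in it. The 19 listed genes include elt-3, a GATA factor of the epidermis, whose outermost 5′ end was 14298 bp from the nearest summit.

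Lists of epidermal structure had small counts on X, and none stands clear of the 8.06% of all X genes. Cuticle collagen genes had summits in 3 of 30 cases on X, against 11 of 151 on the autosomes (7.28%), all with low values: col-166 at 86.2, col-44 at 82.4 and col-167 at 78.6. Of junction and polarity genes 1 of 10 had a summit, spc-1 (alpha-spectrin) at 123, and ajm-1 and dlg-1, the apical junction genes on X, had none, the nearest summits being 53825 and 11621 bp away; elt-3 and these 2 genes were named after their values were seen. Among hedgehog-related and patched-related genes it was 1 of 14, wrt-6 at 97.7, and of the innexins, the gap junction proteins of invertebrates, 0 of 6.

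In lists from other tissues the counts were 1 of 37 for neuropeptides, ins-39 at 265, and 1 of 22 for axon guidance and neuronal genes, unc-115, which encodes an actin-binding protein, at 135. Of 11 muscle genes, act-4 (actin) had a summit at 114. Of the 2 ribosomal protein genes on X, rpl-11.2 had one at 541; on the autosomes 49 of 78 such genes did (62.8%).

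Neighbouring summits on X were a median of 16520.0 bp apart, against 20705 bp on the autosomes, and the means were 36218 and 41616 bp. Within 5 kb of another summit lay 244 X summits (49.9%), against 45.4% of autosomal summits (odds ratio 1.20, adjusted p = 0.153, Fisher's exact test). The largest cluster of summits with gaps of at most 5 kb held 12 of them over 14701 bp, around R03E9.2, mdl-1, R03E9.10 and abts-4, with signal values of 90.1 to 554; mdl-1 encodes a Mad-type partner of Max, and the largest autosomal cluster held 9. The next on X held 7 around M163.1 and fbxa-141, and 6 around nhr-25 and F11C1.14. The longest stretch without a summit, 332218 bp with 31 protein-coding genes, ran from the pseudogene WBGene00021342 near the left end to sor-3. Inside it lay 4 peaks of the ranked list, with signal values of up to 538, that reach the IDR limit and are not in the thresholded list. With all 8 such X peaks counted, a choice made after seeing the data, the longest stretch was the 294689 bp between the summits near glt-1 and pmpl-1.

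Along X the summits leaned to the right. With X cut into 3 equal stretches, the left, middle and right ones held 28.8%, 30.9% and 40.3% of the summits (36.0 to 44.7 for the last) and 31.9%, 35.8% and 32.3% of the protein-coding genes. With X cut into 10 equal stretches, the ninth had 15.7% of the summits (12.8 to 19.2) and 10.4% of the genes, which is 272 summits per 1000 genes, and the seventh had 7.57% of the summits (5.54 to 10.3), which is 113 per 1000 genes. Median signal values in the left, middle and right stretches were 118, 122 and 127. Summits in clusters are not independent, so these intervals are too narrow.

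**Figure D5:**
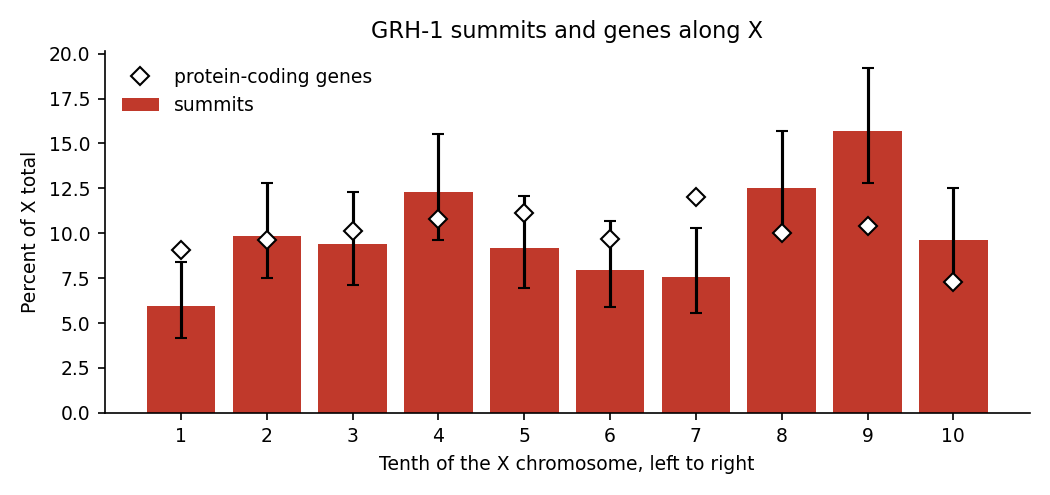
Percent of the 489 X summits in each of 10 equal stretches of the chromosome from left to right (bars with 95% Wilson intervals) and percent of X protein-coding genes there (open diamonds). The ninth stretch is highest at 15.7% of summits with 10.4% of genes, and the first is lowest at 5.93%.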

How the data were processed

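ChIP-seq peak lists of 2 biological replicates of 1 group and of their pool were analysed. Per the labels, the build was ce11. Aligner, peak caller and depth: not given in the sources used here. No control library was used in the comparisons made here. The deposited score of each peak is the authors' signal value, whose scale is not given, so it was used only to rank and describe peaks within a list. The deposited −log10 of the IDR was at least 2 for each thresholded peak, an IDR of at most 0.01. Replicate signal values came from the highest overlapping peak (1 bp) of each replicate's ranked list, which neighbouring summits can share.

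Genes were those of Ensembl release 115, whose chromosome lengths match the build, and sequences those of the RefSeq reference assembly. The 5′ ends of a gene were those of its annotated protein-coding transcripts, each with its own promoter window. For genes of the lists, the distance to the nearest summit was taken from the gene's outermost 5′ end. A summit took the first class that held it, in the order promoter window, coding exon, UTR, intron, gene of another kind, intergenic. Shares on X and on the autosomes were compared with two-sided Fisher's exact tests, Benjamini-Hochberg adjusted within 12 shares and within 7 motifs at 0.05; shares have Wilson intervals and densities exact Poisson intervals. Neighbouring summits are not independent, and p-values over them are too small. Members, lists and motifs were chosen with earlier results of these data known; longer forms of the core, motif shares by position and by signal rank, and signal by class were added after seeing the data. Named were the 15 highest X summits, the highest of each class, the 10 highest with the palindrome, up to 3 genes per list, X genes of the dosage and sex list, and genes at the longest gap and largest cluster. Python 3.11.15 was used with SciPy 1.17.1, pandas 2.3.3, numpy 2.4.6 and, for figures, matplotlib 3.10.9, and the steps were tested on simulated data.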

Additional observations from a re-analysis of the deposited data

How the results depend on the processing

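The shares of X summits in promoter windows, intergenic sequence and genes of other kinds, and with GCGCAGGG, kept their direction and their side of the threshold under every alternative run for them: single replicates' lists, the conservative list, peaks above the median signal value (the upper list), merged summits, autosomes without V, and other windows where these apply. The share with GCGCAGGG ranged between 2.45% within 50 bp (0.0505% on the autosomes) and 6.06% in the upper list (0.199%). The difference in AGACGCAG no longer passed the test in the upper list (10.4%) or in replicate 2's list; the share was 8.90% to 10.4% in single replicates' lists. The density ratio of 1.15 was 1.56 per gene, since X has fewer genes per Mb. The median gap was 47815 bp in the upper list and between 33470.0 and 37938 bp in single replicates' lists, which hold fewer summits. Directions turned for the share of genes with the nearest 5′ end only (7.47%), for peaks above the median in the upper list (51.1%), for overlap with both replicates without V (50.1%), in the conservative list (51.8%) and in the upper list (90.0%), and, in replicate 1's list, for summits within 5 kb (37.4% there and 41.0% in replicate 2's list); of these only the first passed the test. No paired analysis was possible because there is 1 group. Unknown depth limits all lists, and the intervals cover counting error only.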

Other observations

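In the pooled ranked list, 8 X peaks had a −log10 IDR of at least 2 but are missing from the thresholded list, and the sources used here give no reason. The highest of them had a signal value of 1594, above every X peak of the thresholded list, and ranked 9 of all ranked peaks; its summit was 6938 bp from the 5′ end of Y7A5A.7, the nearest. A second summit near Y7A5A.7 had 271, and those near R57.2 had 538 and 132. The remaining 4, near elk-2, C24H10.4, H03A11.2 and fbxa-221, had 242, 132, 87.6 and 80.5. The summits near elk-2, fbxa-221 and R57.2, which number 4, lie inside the longest X stretch without a thresholded summit. None of the 8 had GCGCAGGG or AACCGGTT within 100 bp. They were named after their values were seen and enter no count above.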
